A study of Mus musculus with 8 samples.

Results

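The genes described here are 8 sensors of RNA and the proteins that act directly with them: Ddx58, Ifih1, Dhx58, Eif2ak2, Mavs, Adar, Tlr3 and Tlr7. They were chosen by symbol, with earlier results of these data known, and are 8 of the 27998 genes in the count tables. Their transcripts were followed in hematopoietic stem and progenitor cells (HSPCs) from the bone marrow of wildtype mice aged 12 to 14 weeks. A single subcutaneous injection of recombinant mouse IFNα, 50000 IU per 20 g of body weight, was given 3, 24 or 72 h before collection, and control mice received 100 µl PBS. Each of the 4 groups held 4 mice, whose cells carried 4 hashtag antibodies and were pooled after labeling, so that each group was a single library. All cells were sorted as Lin- c-Kit+ (LK), and LK CD150+ CD48- CD34- hematopoietic stem cells (HSCs) were added, so the share of HSCs was set by the sort. Because a group and its library are the same, an effect of treatment and an effect of the library cannot be told apart.

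RIG-I (encoded by Ddx58) and MDA5 (Ifih1) are helicases that bind double-stranded RNA in the cytosol and signal through MAVS, an adaptor on mitochondria, to switch on type I interferon. LGP2 (Dhx58) is their relative without a signaling domain and tunes both. PKR (Eif2ak2) is a kinase that halts translation on binding double-stranded RNA, and ADAR1 (Adar) edits adenosines in double-stranded RNA and thereby keeps the cell's own RNA from being sensed. TLR3 and TLR7 sit in endosomes and bind double-stranded and single-stranded RNA. Many of these sensors are themselves interferon-stimulated genes, whose promoters often carry the interferon-stimulated response element (ISRE) bound by the ISGF3 complex. In HSCs, type I interferon is known to push quiescent cells into cycle.

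There were 2474 kept cells from control mice and 1661, 3462 and 2449 from mice at 3, 24 and 72 h, with median unique molecular identifiers (UMIs) per cell of 18965, 12017, 18954 and 14763. Control mouse 4 contributed 58 cells and 1102706 UMIs, against 330 to 1240 cells in the other 15 mice. Transcripts of Kit, the sorted antigen, stood between 76.9 and 123 CPM (UMI counts-per-million) in every mouse, and library pairs shared at most 1 kept cell barcode. Summed neutrophil progenitor markers had a median of 17443 CPM in control and 8196 CPM at 3 h. The summed level of the 9 macrophage markers ranged from 3.63 to 15.1 CPM in control mice and from 4.28 to 6.90 CPM at 3 h, with 0 genes without a UMI. There were 13 markers of plasmacytoid or classical dendritic cells (pDC or cDC), of which pDCs are known for Tlr7. They summed to 819 to 901 CPM in control and 632 to 667 CPM at 3 h, with 9 of the 13 under 1 CPM in both groups. At 3 h 4 of them, the pDC markers Siglech, Spib and Klk1 and the cDC marker Cd209a, had no UMI. Klk1 had none in any group. The part of these markers in the results below was not tested. Values with every cell class in equal weight are given where they bear on a result. Unlike the other fold changes below, they come from limma on log2 of mean CPM with a constant added. That scale shrinks changes of genes at few CPM, and for these the parts of cell mix and scale were not tested.

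Promoter windows from RefSeq (GRCm38.p6), 250 bases before to 50 after each annotated start, were found for 6 of the 8 genes. Dhx58 and Tlr7 had no window. The windows of Ddx58, Ifih1 and Eif2ak2 and 1 of Adar are shown as genes that were higher at 3 h and hold a match to the motif, that of Tlr3 as a gene that was higher without one, and that of Mavs as the gene that did not pass the test. They are written 5' to 3' on the gene's strand, and capitals mark the ISRE core GAAANNGAA or its reverse complement TTCNNTTTC.
Ddx58, chr4:40239776-40240075, minus strand: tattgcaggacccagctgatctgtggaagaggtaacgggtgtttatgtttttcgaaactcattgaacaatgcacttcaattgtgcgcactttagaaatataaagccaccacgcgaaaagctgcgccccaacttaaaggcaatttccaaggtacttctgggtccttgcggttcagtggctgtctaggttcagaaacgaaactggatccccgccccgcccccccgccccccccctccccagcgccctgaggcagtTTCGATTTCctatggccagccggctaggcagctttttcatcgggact
Ifih1, chr2:62646206-62646505, minus strand: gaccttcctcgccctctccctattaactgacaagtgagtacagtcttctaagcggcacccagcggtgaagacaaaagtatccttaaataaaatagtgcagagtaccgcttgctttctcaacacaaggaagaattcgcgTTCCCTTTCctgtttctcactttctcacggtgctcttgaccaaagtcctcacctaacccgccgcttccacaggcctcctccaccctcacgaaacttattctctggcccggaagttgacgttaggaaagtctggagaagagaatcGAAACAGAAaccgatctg
Eif2ak2, chr17:78882523-78882822, minus strand: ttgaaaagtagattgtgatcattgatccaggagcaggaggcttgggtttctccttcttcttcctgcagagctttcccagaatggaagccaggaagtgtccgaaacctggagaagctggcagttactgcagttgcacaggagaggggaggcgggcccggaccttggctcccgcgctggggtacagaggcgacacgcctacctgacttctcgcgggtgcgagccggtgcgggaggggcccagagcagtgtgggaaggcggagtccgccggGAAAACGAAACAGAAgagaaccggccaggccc
Tlr3, chr8:45410331-45410630, minus strand: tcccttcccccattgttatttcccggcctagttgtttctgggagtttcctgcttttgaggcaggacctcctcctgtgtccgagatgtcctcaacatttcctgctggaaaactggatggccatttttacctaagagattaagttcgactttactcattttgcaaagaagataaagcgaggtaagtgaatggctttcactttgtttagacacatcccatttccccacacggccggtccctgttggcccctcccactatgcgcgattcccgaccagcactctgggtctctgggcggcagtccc
Adar, chr3:89730468-89730767, plus strand, the third of 3 annotated starts: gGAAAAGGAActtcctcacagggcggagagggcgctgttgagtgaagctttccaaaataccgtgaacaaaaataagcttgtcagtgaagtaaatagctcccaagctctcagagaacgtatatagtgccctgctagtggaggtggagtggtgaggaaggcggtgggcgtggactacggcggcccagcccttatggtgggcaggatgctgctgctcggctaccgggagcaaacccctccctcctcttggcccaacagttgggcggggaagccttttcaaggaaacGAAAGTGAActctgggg
Mavs, chr2:131233813-131234112, plus strand: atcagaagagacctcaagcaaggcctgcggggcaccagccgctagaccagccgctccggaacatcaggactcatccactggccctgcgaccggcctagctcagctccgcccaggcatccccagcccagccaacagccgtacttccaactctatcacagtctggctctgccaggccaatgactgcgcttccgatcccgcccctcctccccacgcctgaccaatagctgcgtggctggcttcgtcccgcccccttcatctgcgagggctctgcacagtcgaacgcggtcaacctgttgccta
The core was present in 8.56% of all 32851 windows. Ddx58 held 1 match, beginning at base 4 when the start is counted as base 1. Ifih1 held 2, of which 1 began 112 bases before the start and the other at base 33. In Eif2ak2, 2 matches overlapped each other at bases 19 and 25. In Adar, only the window of the third start held matches, 1 near the upstream end of the window and 1 at base 34. No match was found in the windows of Mavs, Tlr3 or the other Adar starts, which says only that these letters are missing from them. The palindromic GAS core TTCNNNGAA occurred in 8.30% of windows and among the members in Eif2ak2 and the third Adar window, once in each.

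At 3 h post-treatment, transcripts of 7 of the 8 genes were higher than in control mice, and Mavs did not pass the test. The 7 include Tlr3, which entered the test only through the mice at 3 h, so that its call is a description. The test was edgeR's quasi-likelihood F test across all genes on the UMIs summed for each mouse. To be called, a gene had to have an adjusted p (Benjamini-Hochberg) below 0.05 together with a log2 fold change beyond 1 in either direction. Of all 12042 genes tested, 5.22% were called higher at 3 h. At 24 h, 3 of the 8 genes were still called higher, against 1.46% of all genes, and at 72 h 0 of 8 were called in either direction, against 2.86%. At that time 3 of the 8 had an unadjusted p under 0.05 by edgeR, and DESeq2 also called 0. In such sums, fewer cells of a type and less RNA per cell cannot be told apart. Below, 4 values in a row are the mice with hashtags 1 to 4, in CPM scaled by TMM.

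**Figure D1:**
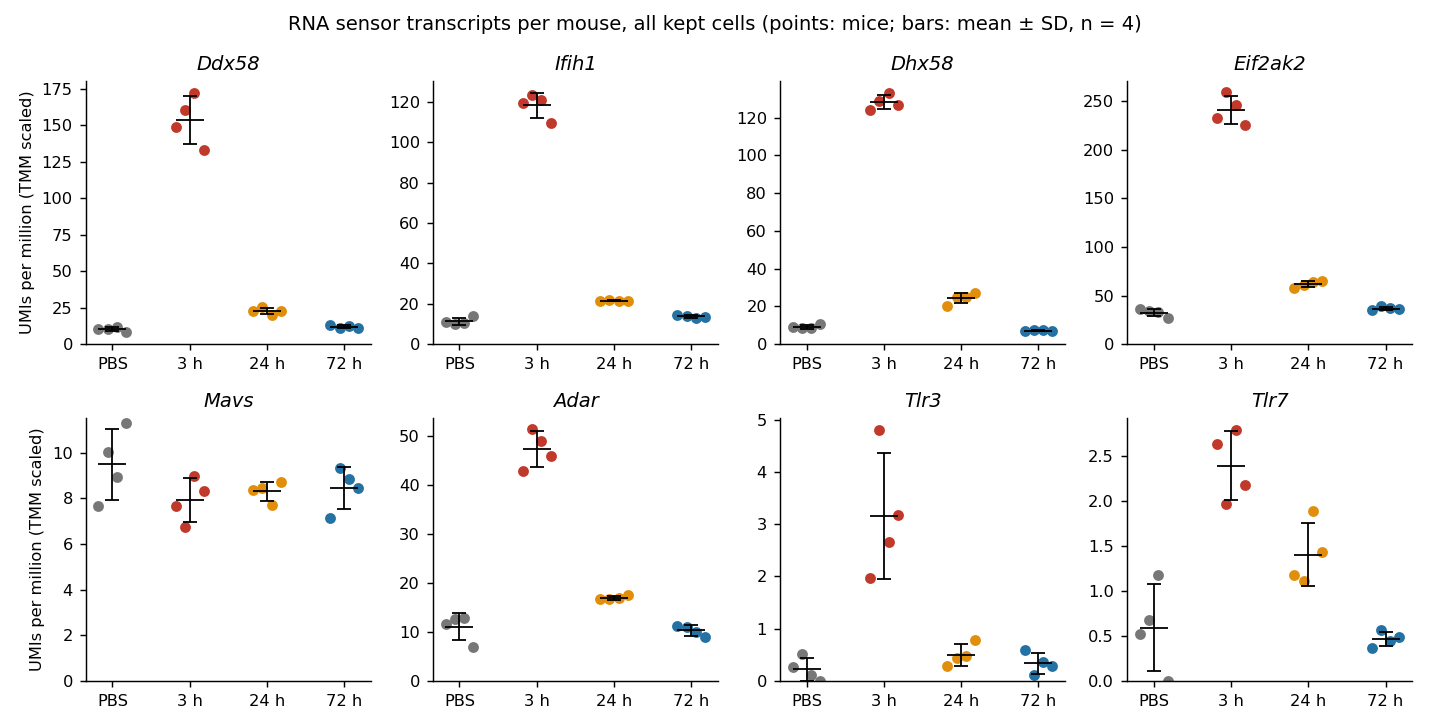
Transcript level of the 8 genes in each mouse, in CPM (TMM scaled, linear axes starting at 0), for control (PBS), 3 h, 24 h and 72 h; points are mice, and bars the mean ± SD (n = 4). Except for Mavs, all 4 mice at 3 h lay above all 4 control mice. In these genes other than Tlr7, most of the rise was gone at 24 h. How many of all genes lay apart in this way was not counted.

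All 3 cytosolic helicases rose. Ddx58 (chr4:40203773-40239828, minus strand) stood at 10.3, 10.7, 12.0 and 8.70 CPM in control mice and at 149, 160, 172 and 133 CPM at 3 h. It then stood at 22.5, 25.3, 19.9 and 22.6 CPM at 24 h and at 13.2, 11.1, 12.2 and 11.2 CPM at 72 h. The groups at 3 and 24 h overlapped neither control nor each other, whereas 72 h overlapped control. The log2 fold change was 3.82 ± 0.09 (SE, 14.1-fold, adjusted p = 1.14e-19) at 3 h and 1.06 ± 0.10 (adjusted p = 2.44e-08) at 24 h. At 72 h it was 0.14 ± 0.11 (adjusted p = 0.359). Without 24 h mouse 2 the value at 24 h was 0.99, just under the limit of 1.

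Ifih1 (chr2:62595798-62646255, minus strand) stood at 11.1, 9.88, 10.4 and 13.9 CPM in control mice and at 119, 124, 121 and 109 CPM at 3 h. At 24 h it stood at 21.2, 22.1, 21.6 and 21.4 CPM, and at 72 h at 14.4, 14.0, 12.9 and 13.7 CPM. The 4 mice at 24 h differed by less than 1 CPM and lay above every control mouse, and 2 mice at 72 h did too. Ifih1 had a log2 fold change of 3.48 ± 0.06 (11.2-fold, adjusted p = 8.32e-22) at 3 h and of 1.03 ± 0.07 (adjusted p = 7.80e-11) at 24 h. At 72 h it was 0.38 ± 0.07, which passed the p threshold (adjusted p = 0.000447) but not the fold threshold. With the cell classes in equal weights, the value at 72 h was 0.02 ± 0.09 (limma, adjusted p = 0.919). Without control mouse 2 the value at 24 h was 0.98, under the fold limit.

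Dhx58 (chr11:100694884-100704271, minus strand) stood at 8.86, 8.74, 8.57 and 10.4 CPM in control mice and at 124, 129, 133 and 127 CPM at 3 h. At 24 h it stood at 20.4, 25.2, 24.9 and 27.1 CPM, and at 72 h at 7.01, 7.63, 7.42 and 6.80 CPM. It was the only gene of the 8 with all 4 mice at 72 h below all control mice, and how many of all genes were so was not counted. For Dhx58 the log2 fold change was 3.87 ± 0.08 (14.6-fold, adjusted p = 3.51e-21) at 3 h and 1.49 ± 0.08 (adjusted p = 2.39e-12) at 24 h. At 72 h it was -0.29 ± 0.10 (adjusted p = 0.0316), short of the fold limit. With every mouse thinned to equal UMIs, the value at 72 h was -0.04 ± 0.30 (edgeR, adjusted p = 0.963). With the cell classes in equal weights it was -0.42 ± 0.09 (limma, adjusted p = 0.00351). An antisense gene, Dhx58os, overlaps the last exon of Dhx58, and whether the counting used strand is not given in the sources used here.

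The kinase PKR rose as well. Eif2ak2 (chr17:78852564-78882573, minus strand) stood at 36.1, 33.8, 33.5 and 26.97 CPM in control mice and at 233, 259, 246 and 226 CPM at 3 h. At 24 h it stood at 57.7, 60.6, 64.1 and 64.7 CPM, and at 72 h at 34.9, 39.2, 37.1 and 35.8 CPM. All mice at 3 and 24 h lay above all control mice, and the groups at 72 h and control overlapped. Eif2ak2 had a log2 fold change of 2.82 ± 0.06 (7.07-fold, adjusted p = 1.18e-20) at 3 h. At 24 h it was 0.86 ± 0.06 (1.81-fold, adjusted p = 2.09e-10), which did not reach the fold limit. With every mouse thinned to equal UMIs, the value for Eif2ak2 at 24 h was 1.01 and passed both limits.

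The editor ADAR1 rose too. Adar (chr3:89715022-89753446, plus strand) stood at 11.6, 12.7, 12.9 and 6.96 CPM in control mice and at 42.9, 51.5, 48.9 and 46.0 CPM at 3 h. At 24 h it stood at 16.7, 16.8, 16.9 and 17.6 CPM, and at 72 h at 11.2, 10.998, 10.01 and 8.94 CPM. Again the mice at 3 and 24 h lay above all control mice. For Adar the log2 fold change was 1.96 ± 0.09 (3.89-fold, adjusted p = 8.54e-15) at 3 h and 0.48 ± 0.08 (adjusted p = 0.000169) at 24 h. Chrnb2 lies on the opposite strand over a last exon of Adar, and its reads cannot be told apart here if strand was not used.

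Mavs (chr2:131234063-131248025, plus strand), the adaptor that both helicases need, stood at 7.67, 10.0, 8.94 and 11.3 CPM in control mice and at 7.66, 6.76, 8.98 and 8.32 CPM at 3 h. At 24 h it stood at 8.37, 8.44, 7.73 and 8.71 CPM, and at 72 h at 7.16, 9.31, 8.85 and 8.46 CPM. All 4 groups overlapped. Mavs had log2 fold changes of -0.15 ± 0.13 (adjusted p = 0.399) at 3 h, -0.10 ± 0.10 (adjusted p = 0.489) at 24 h and -0.10 ± 0.11 (adjusted p = 0.520) at 72 h. Its sign at 3 h was positive when every mouse was thinned to equal UMIs (0.18 ± 0.35). With the cell classes in equal weights, the value at 3 h was -0.41 ± 0.14 (limma, adjusted p = 0.0214). That passed the p threshold but not the fold threshold.

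Both endosomal receptors were rare transcripts. Tlr3 (chr8:45395665-45411080, minus strand) had 5, 9, 2 and 0 UMIs in control mice, or 0.26, 0.51, 0.11 and 0 CPM, and 9, 22, 21 and 16 UMIs at 3 h, or 1.97, 4.80, 2.66 and 3.17 CPM. It stood at 0.29, 0.44, 0.47 and 0.79 CPM at 24 h and at 0.59, 0.11, 0.36 and 0.29 CPM at 72 h. Only the mice at 3 h lay apart from control. The log2 fold change was 3.42 ± 0.43 at 3 h and 0.85 ± 0.49 at 24 h. Tlr3 passed the filter on low counts through the mice at 3 h, so these values are a description with no test.

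Tlr7 (chrX:167304929-167330558, minus strand) had 10, 12, 22 and 0 UMIs in control mice, or 0.52, 0.68, 1.17 and 0 CPM, and 12, 9, 22 and 11 UMIs at 3 h, or 2.62, 1.96, 2.78 and 2.18 CPM. It stood at 1.18, 1.11, 1.88 and 1.44 CPM at 24 h and at 0.37, 0.56, 0.45 and 0.49 CPM at 72 h. All mice at 3 h lay above control, and 3 of 4 did at 24 h. The log2 fold change was 1.65 ± 0.32 (adjusted p = 0.000239) at 3 h and 0.83 ± 0.28 (adjusted p = 0.0318) at 24 h. With the cell classes in equal weights, the value for Tlr7 at 3 h was 0.74, under the fold limit. At so few CPM, the scale of that fit also shrinks the change. How much of the lower value came from scale and how much from cell mix was not tested. Without control mouse 3, the value at 24 h was 1.25 and passed both limits. By edgeR it missed the p threshold without control mouse 1 (0.62, adjusted p = 0.159) or control mouse 2 (0.76, adjusted p = 0.0985). The same held without 24 h mouse 3 (0.68, adjusted p = 0.0993) or 24 h mouse 4 (0.81, adjusted p = 0.0623). Without any other single mouse it passed the p threshold alone. With the cell classes in equal weights, the value at 24 h was 0.36 (limma, adjusted p = 0.377), on the same shrinking scale.

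The mix of cells, described further below, differed between the groups. HSC-like cells made up 7.19% of kept cells in control and 13.4% at 3 h. Cluster 3 went from 10.6% to 21.4%, and neutrophil progenitor-like cells from 19.6% to 7.10%. When each class was given the same weight in every mouse, Ddx58 was at 3.25, Ifih1 at 2.93, Dhx58 at 3.41, Eif2ak2 at 2.58, Adar at 1.73 and Tlr3 at 1.79 on the log2 scale at 3 h, and all 6 were still called, that of Tlr3 again as a description. The value of Tlr3, a gene at few CPM, was also shrunk by the scale of that fit. At 24 h only Dhx58, at 1.15, was still called with equal weights, whereas Ddx58 was at 0.79 and Ifih1 at 0.67. The share of all genes called in these fits with equal weights was not counted.

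On the log2 scale, most of the return toward control levels fell between 3 and 24 h for the genes that had risen, except for Tlr7. From 3 to 24 h, 6 of the 8 genes were called lower, against 2.93% of all genes: Ddx58 fell by 2.76 ± 0.08, Tlr3 by 2.57 ± 0.36, Ifih1 by 2.45 ± 0.05, Dhx58 by 2.38 ± 0.06, Eif2ak2 by 1.96 ± 0.05 and Adar by 1.48 ± 0.08 on the log2 scale. The call of Tlr3, tested only through the mice at 3 h, is again a description. Tlr7 had a log2 difference of -0.81 ± 0.28 (adjusted p = 0.0299) over this step. From 24 to 72 h, Dhx58 fell by 1.77 ± 0.08 (adjusted p = 7.30e-13) and Tlr7 by 1.57 ± 0.33 (adjusted p = 0.00362), 2 of the 8 genes against 0.648% of all genes. Over the same step Ddx58 had a log2 difference of -0.92 ± 0.10, with all 4 mice at 72 h below all mice at 24 h but short of the fold limit. Ranked by log2 fold change at 3 h among the 12042 genes, Dhx58 was at place 68, Ddx58 at 70, Ifih1 at 86, Tlr3 at 90, Eif2ak2 at 130, Adar at 235, Tlr7 at 306 and Mavs at 8177.

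The share of cells with at least 1 UMI also moved for most of the genes. The part of free RNA in these shares was not tested, and shares were computed for these genes alone. After every cell was thinned to 5000 UMIs, cells with at least 1 UMI of Ddx58 made up 7.67% ± 0.896 (SD, n = 4 mice) in control and 51.2% ± 4.44 at 3 h. For Ifih1 the share went from 6.33% to 42.9%, for Dhx58 from 5.21% to 47.7%, for Eif2ak2 from 17.2% to 66.7% and for Adar from 5.48% to 21.4%. In these 5 genes and in Tlr3, whose share went from 0.291% to 2.05%, each mouse at 3 h lay above each control mouse, with p = 0.0286 (exact permutation test, two-sided, the smallest value that 4 against 4 mice allow, and 0.0571 adjusted over 24 comparisons). The share with Mavs was 5.57% in control and 3.53% at 3 h (exact p = 0.0571), and that with Tlr7 was 0.407% and 1.203% (exact p = 0.0571). Without thinning, the share with Ddx58 was 17.1% in control and 78.5% at 3 h.

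To compare lineages, control cells were clustered without the 8 genes and the related lists, and labels were carried to the treated cells. Interferon-stimulated genes beyond these were not left out, and their part in the classes was not tested. Clusters were named from marker lists, giving HSC-like cells (Hlf among the leading genes, beside Cd74 and Ltb), LMPP-like cells, progenitors of the neutrophil, monocyte, erythroid and megakaryocyte (MK) lines, and 3 clusters without a name. Cluster 3 had Hlf and Dntt among its leading genes, cluster 6 was led by Scin, Trib2 and Gata2, and cluster 7 by mitotic genes. Isg15 was among the leading genes of the smaller LMPP-like cluster, and Ly6a (Sca-1) among those of HSC-like cells and of cluster 3. Control mouse 4 had too few cells for every class except the neutrophil progenitor-like one, so the other 8 classes rest on 3 control mice.

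In control mice, HSC-like cells had the highest mean level of Ddx58, Ifih1, Dhx58, Eif2ak2 and Adar. Only for Ifih1 did their range over mice lie above that of the next class, cluster 3. Ddx58 stood at 30.9, 37.5 and 51.0 CPM in the HSC-like cells of control mice 1 to 3 and at 1.41, 2.19 and 3.79 CPM in their monocyte progenitor-like cells, so that the 2 classes did not overlap. Mean levels of Ddx58 in control then descended from HSC-like (39.8 ± 10.3 CPM) through cluster 3 (33.3), cluster 6 (18.6), MK (17.5), cluster 7 (17.4), LMPP-like (11.5), neutrophil (5.74) and erythroid (4.81) to monocyte progenitor-like cells (2.46 ± 1.2). Of these neighbors, only LMPP-like and neutrophil progenitor-like cells had ranges over mice that did not overlap. Ifih1 went from 27.7 ± 3.8 CPM in HSC-like to 5.87 ± 0.77 in monocyte progenitor-like cells. The highest and lowest class means were 20.9 and 7.60 CPM for Adar, 16.2 and 6.45 CPM for Dhx58 and 53.6 and 24.4 CPM for Eif2ak2. For Adar, cluster 3 was level with HSC-like cells (20.5 CPM). For Eif2ak2, HSC-like cells (28.1 to 73.4 CPM over mice) overlapped even the lowest class, neutrophil progenitor-like cells (9.41 to 30.9 CPM). Mavs had another order, with MK (12.96 ± 5.7 CPM) and erythroid progenitor-like cells (12.9 ± 1.1) first, HSC-like cells seventh of 9 (6.69 ± 1.8) and neutrophil progenitor-like cells last (6.32 ± 1.2).

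In a joint fit with mouse as a block, classes of control mice differed for 6 of the 7 genes tested (adjusted p from 2.01e-25 for Ddx58 to 0.00454 for Dhx58). The value of Tlr3 in this fit (adjusted p = 0.105) is a description, as Tlr3 passed the filter on low counts through the HSC-like cells at 3 h. Tlr7 was too low to test. Since 85.9% of all genes differed between these classes, which were drawn from the same cells, this count is close to the background. With class sums thinned to equal UMIs, Mavs and Tlr3 were too low to test, and of the 5 other genes Ddx58 and Ifih1 kept the call.

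**Figure D2:**
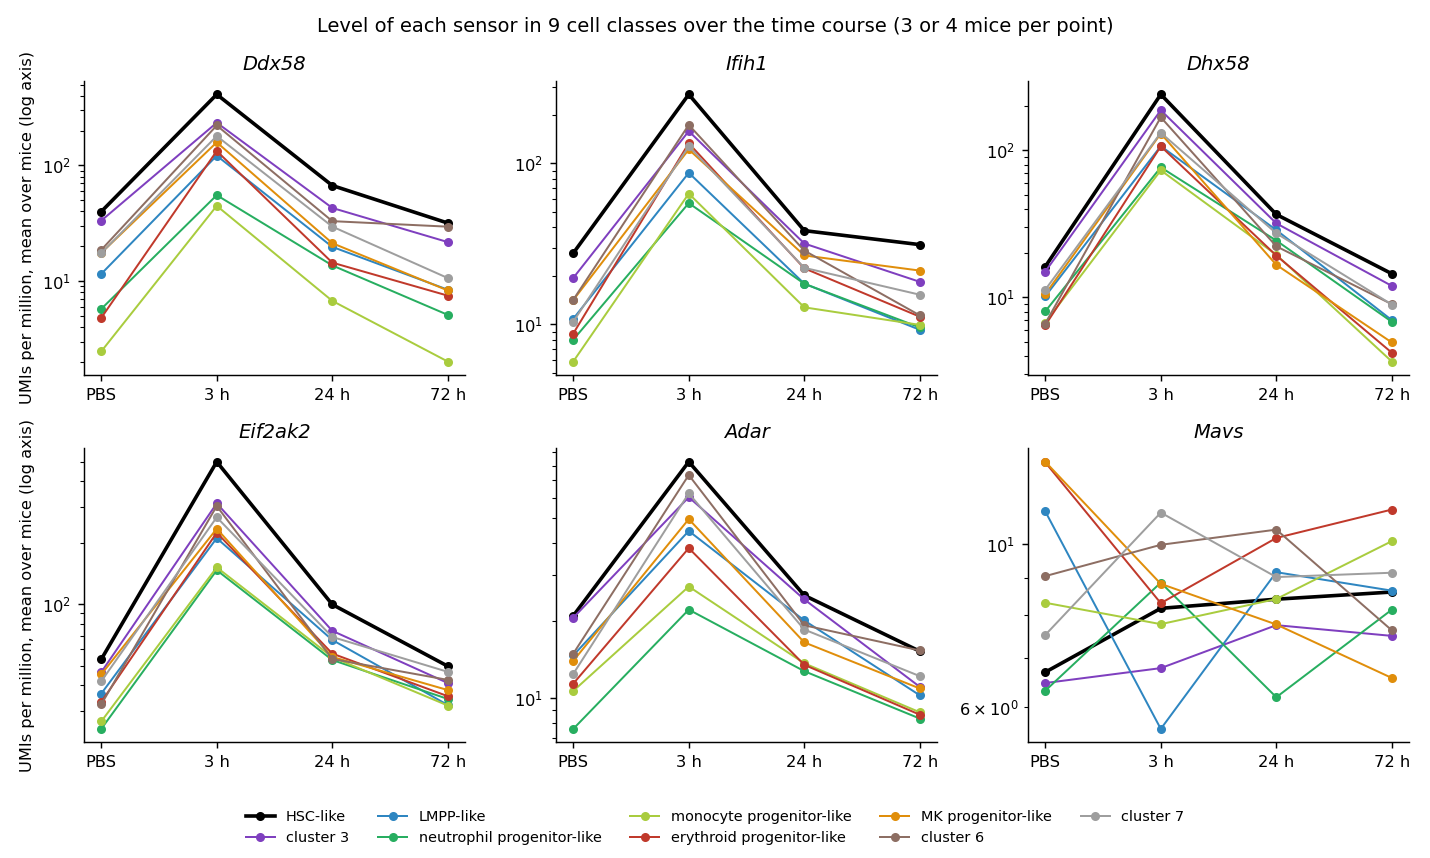
Mean level over mice of 6 of the genes in 9 cell classes (CPM, log axes) at control (PBS), 3 h, 24 h and 72 h; each line is a class, and each point the mean of 3 or 4 mice. HSC-like cells (thick black line) had the highest mean at each of the 4 times for Ddx58, Ifih1, Dhx58 and Eif2ak2, while the lines for Mavs cross.

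At 3 h genes were called in every class. Of 53 tests of a gene within a class, 46 were called higher, and these were all tests of the genes other than Mavs. The 46 include 1 of Tlr3, in HSC-like cells, which is a description as above. So is that of Ddx58 in monocyte progenitor-like cells, at 2.46 CPM in control, 6.74 at 24 h and 2.02 at 72 h. It too passed the filter on low counts through the mice at 3 h. The share of all genes called higher at 3 h was 4.77% in HSC-like cells, 4.39% in cluster 3, 3.56% in LMPP-like, 3.05% in neutrophil, 3.2% in monocyte, 3.98% in erythroid and 3.35% in MK progenitor-like cells, 4.65% in cluster 6 and 3.65% in cluster 7. Mavs was tested in 7 classes and called in 0, with log2 fold changes from -0.89 in LMPP-like cells (adjusted p = 0.0556) to 0.67 in cluster 7, and 1 of the 7 had an unadjusted p under 0.05 by edgeR. Ddx58, Ifih1, Dhx58, Eif2ak2 and Adar did not overlap between 3 h and control mice in any of the 9 classes. How many of all genes did so was not counted. Classes merged from several clusters did not hold them in the same shares: from control to 3 h, cluster 8 went from 37.1% to 15.3% of the neutrophil class, cluster 11 from 26.4% to 10.98% of the LMPP-like class and cluster 12 from 34.0% to 21.8% of the erythroid class. With the clusters of a class in equal weights, the same 5 genes were called higher in each of these 3 classes, and Mavs was called lower in erythroid progenitor-like cells (log2 -1.23, limma, adjusted p = 0.0286). For these fits too, the share of all genes called was not counted.

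Estimates of the rise ranged between classes. Ddx58 rose by 4.74 ± 0.21 (SE) on the log2 scale in erythroid progenitor-like cells, by 3.36 ± 0.16 in HSC-like cells and by 2.80 ± 0.15 in cluster 3. Its value in monocyte progenitor-like cells, 4.196 ± 0.31, is a description as above. In erythroid progenitor-like cells it went from 7.38, 3.02 and 4.02 CPM in control mice to 139, 112, 137 and 143 CPM at 3 h. In HSC-like cells it reached 413, 425, 364 and 442 CPM at 3 h, and in monocyte progenitor-like cells 35.7, 51.0, 48.3 and 43.9 CPM. The order of classes by level thus differed from that by fold change. Eif2ak2 rose by 3.22 ± 0.17 in cluster 6, by 3.13 ± 0.16 in HSC-like cells and by 2.32 ± 0.12 in neutrophil progenitor-like cells. At 3 h the HSC-like levels of Ddx58 (411 ± 33.8 CPM), Ifih1 (269 ± 16.6) and Eif2ak2 (499 ± 63.3) lay above the range of the next class. Ifih1 ranged from 2.73 in neutrophil to 3.89 in erythroid progenitor-like cells, Dhx58 from 3.33 in neutrophil progenitor-like cells to 4.56 in cluster 6, and Adar from 1.30 in neutrophil progenitor-like cells to 2.32 in cluster 7.

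Whether these changes differed between classes was tested by the class by time term of the joint fit. At 3 h the term passed for Ddx58 (adjusted p = 0.000694) and Eif2ak2 (adjusted p = 0.00145), against 8.53% of all genes. It did not pass for Ifih1 (adjusted p = 0.0519), Adar (0.0705), Dhx58 (0.218) or Mavs (0.314). The value of Tlr3 (0.892) is a description, as Tlr3 entered the joint fit through the HSC-like cells at 3 h. After class sums were thinned to equal UMIs, Ddx58 had an adjusted p of 0.678 and Eif2ak2 of 0.0542, so 0 of the 5 genes that could still be tested passed, and Mavs and Tlr3 were too low to test after thinning. At 24 and 72 h the term passed for 0 of the 7 in edgeR, against 4.17% and 1.68% of all genes. At each time 1 of the 7 had an unadjusted p under 0.05. Among the 7, Tlr3 is again a description. The lowest adjusted p-values at these times were those of Ddx58, 0.0699 and 0.101.

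**Figure D3:**
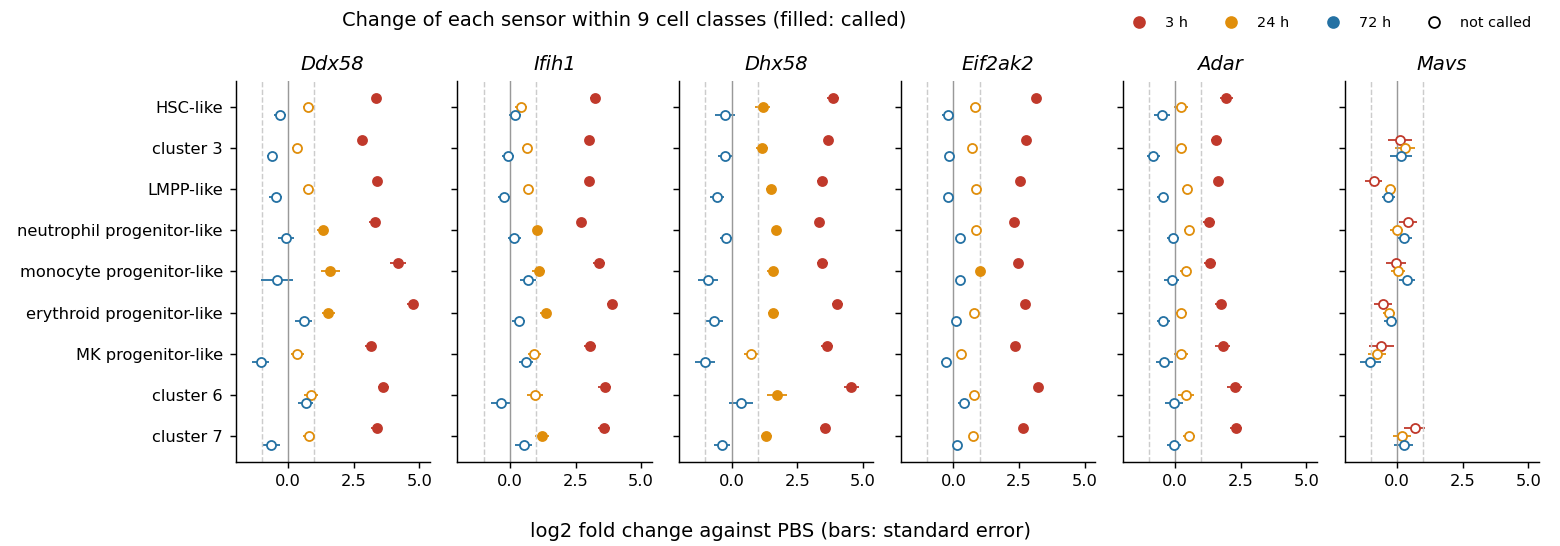
Log2 fold change against control (PBS) of 6 of the genes in 9 cell classes at 3 h, 24 h and 72 h; points are edgeR estimates, bars their standard errors, filled points passed both limits, and dashed lines mark a log2 fold change of 1 in either direction. At 3 h all points outside the Mavs panel are filled, at 24 h 16 are, 8 of them for Dhx58, and at 72 h none.

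At 24 h, 16 of the 53 tests were still called higher. Dhx58 accounted for 8 of them, in every class but the MK progenitor-like one, with log2 fold changes from 0.74 in that class to 1.73 in cluster 6. Ifih1 was called in the neutrophil, monocyte and erythroid progenitor-like classes and cluster 7, with its highest value of 1.36 in erythroid progenitor-like cells. Ddx58 was called in the neutrophil (1.31), monocyte (1.61) and erythroid (1.53) progenitor-like classes, and Eif2ak2 in the monocyte progenitor-like class (1.02). The monocyte call of Ddx58, which passed the filter on low counts through the mice at 3 h, is again a description. The monocyte progenitor-like class thus kept 4 genes called, the neutrophil and erythroid classes 3 each, cluster 7 2, MK progenitor-like cells 0 and each other class 1. In HSC-like cells the values were 1.18 for Dhx58, 0.82 for Eif2ak2, 0.77 for Ddx58 and 0.43 for Ifih1. Whether the classes differ at 24 h was tested above and did not pass.

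The shares of all genes called higher at 24 h were 0.488% in HSC-like cells, 0.807% in cluster 3, 0.917% in LMPP-like, 0.843% in neutrophil, 1.04% in monocyte, 1.15% in erythroid and 0.411% in MK progenitor-like cells, 0.808% in cluster 6 and 0.844% in cluster 7. Some calls at 24 h rested on a single mouse. The HSC-like call of Dhx58 was lost without control mouse 1, control mouse 2 or 24 h mouse 4, and 3 genes were called there without control mouse 3. In cluster 3, 0 genes were called without control mouse 3. LMPP-like cells and cluster 6 had 2 genes called without control mouse 1, MK progenitor-like cells 1 without control mouse 2, and cluster 7 only 1 without 24 h mouse 2.

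At 72 h, 0 of the 53 tests were called by edgeR's quasi-likelihood test, 11 had an unadjusted p under 0.05, and DESeq2 called 1, Ddx58 in MK progenitor-like cells. The shares of all genes called in either direction at 72 h were 0.797% in HSC-like cells, 0.894% in cluster 3, 0.896% in LMPP-like, 0.716% in neutrophil, 0.946% in monocyte, 0.755% in erythroid and 0.761% in MK progenitor-like cells, 0.64% in cluster 6 and 1.03% in cluster 7. The nearest were Ddx58 in MK progenitor-like cells, at -1.05 (adjusted p = 0.0564), and Adar in cluster 3, at -0.83 (adjusted p = 0.0453). At 72 h, HSC-like cells again had the highest mean of Ddx58 (31.7 CPM), Ifih1 (31.3 CPM), Dhx58 (14.5 CPM) and Eif2ak2 (49.6 CPM). Each time their range over mice overlapped that of the next class. For Adar, cluster 6 and HSC-like cells were level (15.3 and 15.2 CPM).

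Most Tlr3 transcripts at 3 h came from HSC-like cells and cluster 3. In HSC-like cells there was 1 UMI of Tlr3 in control mice, and at 3 h there were 5, 8, 6 and 5 UMIs in the 4 mice. The 24 UMIs at 3 h against 1 in control gave a ratio of 25.5 per UMI sequenced (95% exact interval 4.15 to 1047, counting error only). HSC-like was the only class in which Tlr3 passed the filter on low counts, again through the mice at 3 h, and its log2 fold change there, 4.49, is given as a description with no test. In cluster 3 the count went from 4 to 20 UMIs, a ratio of 4.199 (1.41 to 16.9). HSC-like cells and cluster 3 together held 44 of the 68 Tlr3 UMIs at 3 h (64.7%, 95% exact binomial interval 52.2 to 75.9), but 22.9% of all UMIs. Both classes were picked from these counts, and the interval covers counting error only, over UMIs pooled from the 4 mice. In control, 8 of the 16 Tlr3 UMIs came from the clusters too small to test, which were led by basophil genes such as Prss34 and by Cd74 with MHC class II genes, and these clusters held 4 of 68 at 3 h.

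Cells with a UMI of Tlr3 after thinning made up 10.1% ± 3.7 (SD, n = 4 mice) of HSC-like cells at 3 h, 17 of 196 cells, and 0 of 164 cells in control, which allows a share of up to 1.83% (counting error only, over cells pooled from 3 mice). The 1 control UMI named above was present before thinning. In cluster 3 they made up 3.27% at 3 h and 1.34% in control, and the ranges over mice overlapped. In erythroid progenitor-like cells, taken as the background class, there were 0 of 246 cells in control and 0 of 122 at 3 h, which allows up to 2.46%, and 2 UMIs at 3 h before thinning. Median depth was 7785 UMIs in HSC-like and 19108 in erythroid progenitor-like cells at 3 h before thinning. At 24 h the share in HSC-like cells was 1.57%, or 5 of 320 cells, and at 72 h 1 of 248.

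Tlr7 was found mainly in LMPP-like cells and cluster 3. At 3 h, 19 of its 54 UMIs were in LMPP-like cells, 19 in cluster 3, 6 in cluster 7, 5 in HSC-like cells, 4 in monocyte and 1 in neutrophil progenitor-like cells, and 0 in erythroid or MK progenitor-like cells or cluster 6. LMPP-like cells and cluster 3 thus each held 35.2% (95% exact binomial interval 22.7 to 49.4) of the Tlr7 UMIs, and 15.8% and 15.7% of all UMIs. The interval covers counting error only, over UMIs pooled from the mice, and the classes were picked from these counts. The LMPP-like level of Tlr7 was 1.47 ± 0.73 CPM in control and 5.46 ± 1.0 at 3 h, and these 2 ranges over mice did not overlap. In cluster 3 it was 3.61 ± 3.7 CPM in control and 5.41 ± 4.2 at 3 h, and in HSC-like cells 3.98 ± 1.3 and 4.22 ± 4.0, and in both the ranges overlapped. Tlr7 passed the filter on low counts in 0 of the 9 classes, so none of these differences was tested.

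**Figure D4:**
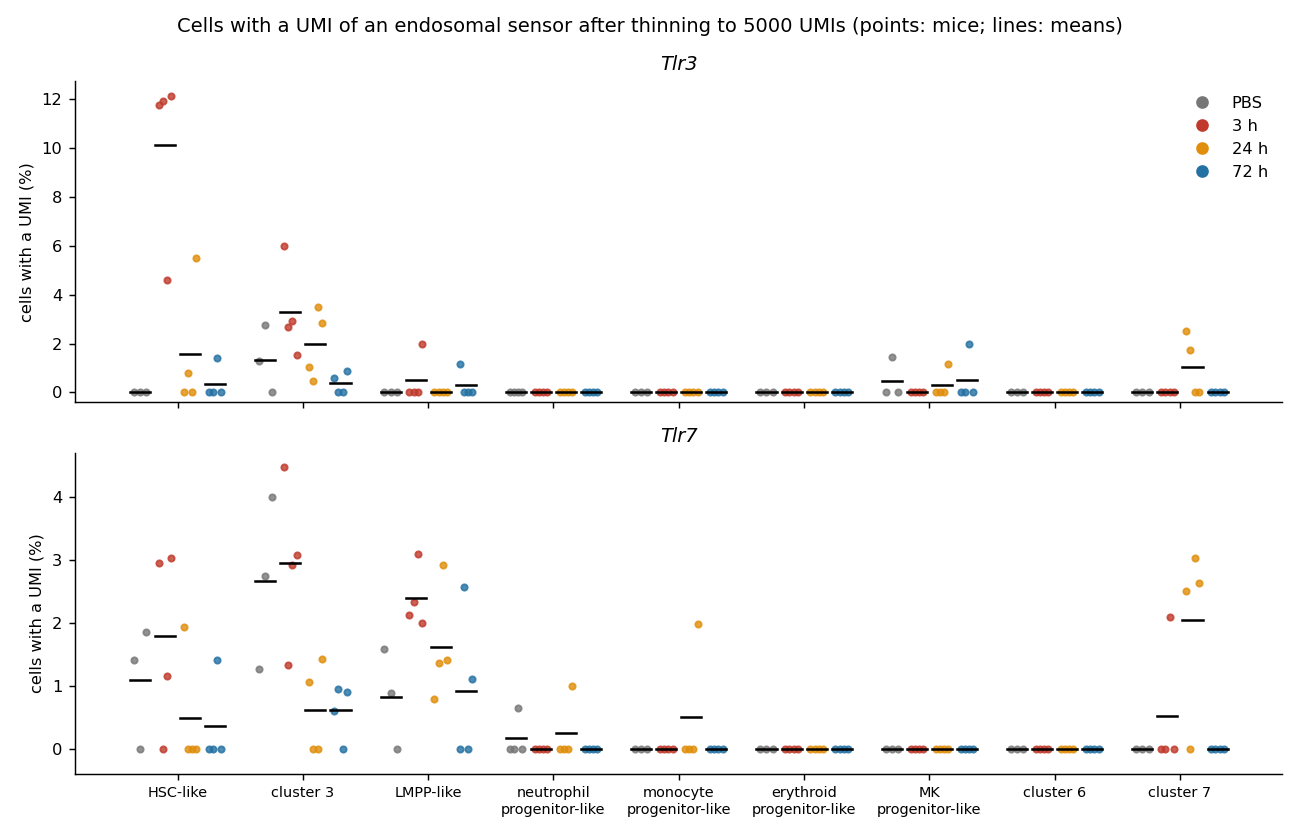
Share of cells (%, linear axes) with at least 1 UMI of Tlr3 or Tlr7 in 9 cell classes after thinning each cell to 5000 UMIs; points are mice and horizontal lines means, for control (PBS), 3 h, 24 h and 72 h. At 3 h the HSC-like cells of all 4 mice, from 4.60% to 12.1%, held Tlr3 above the 0 of control.

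Among related genes, several other sensors of RNA rose at 3 h, together with a few partners of the helicases. The counts of the lists stand beside the 5.22% of all genes called higher at 3 h. Of 24 regulators of RIG-I-like receptors, 4 were called higher at 3 h and 0 lower, with a median log2 fold change of 0.16 against -0.03 over all genes. These were Ddx60, a helicase and cofactor of RIG-I, which went from 4.18 ± 1.9 to 73.5 ± 9.8 CPM (log2 4.46 ± 0.15), the ubiquitin ligases Rnf114 (1.33 ± 0.07) and Trim25 (1.15 ± 0.09), and Zc3hav1 (1.27 ± 0.07), which encodes the antiviral protein ZAP. Of 27 genes listed around MAVS signaling, 1 was called higher and 0 lower, which is near the background, with a median of -0.10. That gene was Irf7, the transcription factor that amplifies interferon genes, which went from 10.5 ± 6.5 to 354 ± 18 CPM (5.53 ± 0.14).

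Of 26 tested genes of the endosomal TLR machinery, Slc15a3, a lysosomal transporter, rose (3.22 ± 0.29) from 0.31 to 3.76 CPM, and Pld4, a nuclease of endosomes, fell by 1.60 ± 0.14 on the log2 scale, from 14.9 ± 2.4 to 5.05 ± 0.68 CPM. Their median was -0.15. Of 16 tested genes around PKR and the integrated stress response, Atf3 was called higher (4.03 ± 0.49), from 0.08 to 1.94 CPM. This count is near the background of 5.22% of all genes, and the median was 0.06. At 24 h Slc15a3 stood at 0.39 CPM and Atf3 at 0.17 CPM. Like Tlr3, both passed the filter on low counts through the mice at 3 h, so their calls are a description. With every mouse thinned to equal UMIs, 0 genes were called higher in either of these 2 lists. In the list on double-stranded RNA binding, editing and Z-RNA, 15 genes were tested, with a median of 0.14. Zbp1, a sensor of Z-form RNA, rose from 9.69 ± 8.1 to 241 ± 18 CPM (5.30 ± 0.15). Sp110, which stands in the list without evidence here that it binds such RNA, rose from 93.7 ± 6.7 to 283 ± 16 CPM (1.62 ± 0.06).

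The list of other RNA sensors had the highest share called, with 11 of 17 higher and a median of 4.46. The highest were Ifit1, which binds foreign RNA ends (6.88 ± 0.15), the oligoadenylate synthetases Oas1g (5.66 ± 0.17) and Oas3 (4.97 ± 0.13), and Zbp1, which like Ddx60 and Zc3hav1 stands in 2 of the lists. At 24 h 9 of the 17 were called higher, against 1.46% of all genes, and at 72 h 1 higher and 1 lower, against 2.86% in either direction. Of the interferons and cytokines that RNA sensing can induce, 10 of 23 passed the filter on low counts and 3 were called higher at 3 h. Cxcl10 went from 12.8 ± 24.0 to 217 ± 14 CPM (6.87 ± 0.47), with a spread between control mice larger than their mean. Its log2 fold change is that of the edgeR fit on counts, and is larger than these means alone would give. Ccl4 (1.54 ± 0.23) and Tnf (1.08 ± 0.21) were under a log2 fold change of 1 when classes were weighted equally. For Tnf, which went from 2.78 to 5.63 CPM, the scale of that fit also shrinks the change. The lists were put together with results of these data known, so their counts are a description.

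**Figure D5:**
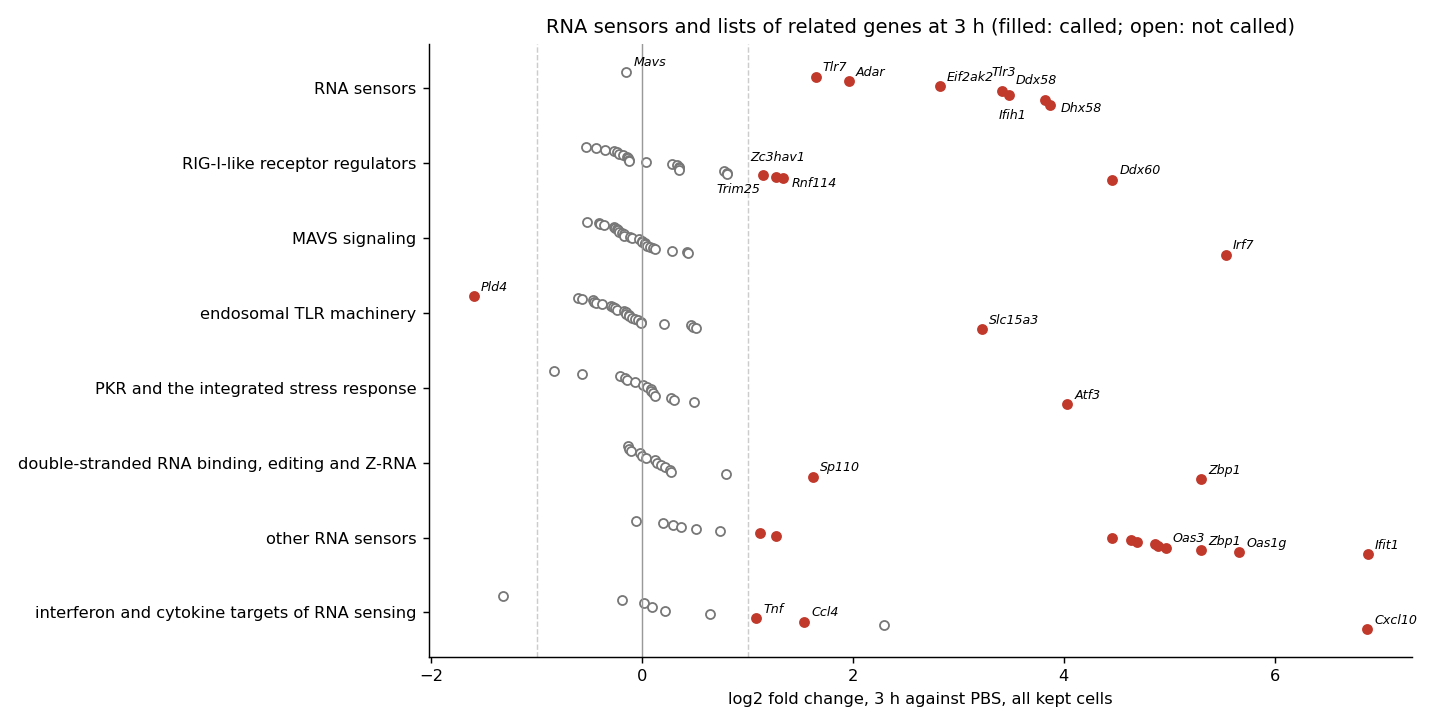
Log2 fold change at 3 h against control (PBS), over all kept cells, for the 8 genes and 7 lists of related genes; each point is a gene, filled where it passed both limits, and dashed lines mark a log2 fold change of 1 in either direction. The RNA sensors and the list of other RNA sensors lie mostly to the right of 1, while the lists around MAVS, the endosomal receptors and PKR each hold a single filled point to the right.

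Likeness of pattern was measured as Pearson's r of mean log2 CPM over 36 combinations of class and time, among 12034 genes, as a description in which all points share 4 libraries. The genes most like Ddx58 were Tgtp2 (r = 0.97), Ddx60 and Gbp7, and those most like Ifih1 included Rsad2 (0.98) and Gbp7. Dhx58 was closest to Zbp1 (0.98), Xaf1 and Isg15, Eif2ak2 to Igtp (0.98) and Parp9, and Adar to Nmi (0.97), Rnf213 and Parp9. Most of these are interferon-stimulated genes. Tlr3 was closest to Apol7e (0.91), Mxra8 and Pacsin1, and Tlr7 to Wfdc17 (0.87), 5031414D18Rik and Lck, in a pattern set by few counts. For Mavs no gene exceeded the r of 0.63 with Ttll12. Among the members, Dhx58 and Eif2ak2 were the most alike (r = 0.97), Ddx58 and Adar had an r of 0.95, Tlr3 and Tlr7 of 0.56, and Mavs had a negative r with each of the other 7.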

How the data were processed

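Single-cell transcriptomes and hashtag antibody counts of 4 libraries were analysed. The deposited values are UMI counts per gene and cell barcode, which the authors made with Cell Ranger 3.1.0 on mm10 and did not normalize, and the deposited hashtag calls assign barcodes to mice. Whether counting used strand is not given in the sources used here. Barcodes called as multiplets or negatives were left out, as were cells with under 700 genes or over 5% mitochondrial UMIs. No other doublet removal was made. UMIs were summed per mouse, and per mouse and class with at least 10 cells. Control cells were clustered in scanpy 1.11.5 without 162 genes (the members and the pathway lists), and labels were carried over by mutual nearest neighbors. Cell names were therefore rebuilt, and classes were named after the clusters had been seen.

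Sums were tested with edgeR 4.0.16 (filterByExpr, TMM, quasi-likelihood F test, all 16 mice, R 4.3.3), with Benjamini-Hochberg adjustment over all genes tested. Fits with classes or clusters in equal weights used limma 3.58.1 on log2 of mean CPM with a constant added. Shares of cells were tested by exact permutation (two-sided) in scipy 1.17.1 after thinning to 5000 UMIs. Thinning left out 35, 61, 35 and 68 cells (control, 3 h, 24 h and 72 h). Mice are numbered by hashtag. The 4 mice of a group are separate animals, but were pooled into 1 library. Mouse sums held 1102706 to 26446327 UMIs. Intervals cover counting error only.

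Genes named beside the members were in each list, up to 4 called genes with the largest log2 fold change at 3 h that moved alike in every treated mouse, and for each member the 3 genes most alike by Pearson's r. One gene that this rule names is not reported here. The members and lists were chosen with earlier results of these data known. Scripts were tested on simulated data. The alternatives were DESeq2 1.42.0, other scaling, filters, tests, cell weights and depths, a transcript length offset, a hashtag block, and leaving out each mouse.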

Additional observations from a re-analysis of the deposited data

Results flagged for a closer look

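Among the control mice, the highest level of Dhx58, 10.4 CPM in the mouse with hashtag 4, stood apart from the other 3: its gap to the nearest mouse was 0.843 of the group's range, over the 95% limit of Dixon's test for 4 values. That mouse had 58 cells. Of 32 groups looked at, about 1 in 20 would stand out in this way by chance.

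The change at 3 h differed between cell classes for Ddx58 (F = 5.11, adjusted p = 0.000694) and Eif2ak2 (F = 4.77, adjusted p = 0.00145) by edgeR's quasi-likelihood test of the class by time term. Neither passed after class sums were thinned to equal UMIs.

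Barcodes without a hashtag call, which no comparison used, also carried the sensors. They were 166 barcodes in control and 422 at 3 h, each set a single pool with no replicates. At 3 h Ddx58 stood at 67.6 CPM in them against 14.0 CPM in control, from 23 and 7 UMIs. Ifih1 stood at 61.7 CPM against 4.01 CPM, from 21 and 2 UMIs, and Dhx58 at 47.0 CPM against 4.01 CPM, from 16 and 2 UMIs. Eif2ak2 stood at 162 CPM against 44.1 CPM, from 55 and 22 UMIs. At 24 h Dhx58 stood at 25.4 CPM in 190 such barcodes.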

How the results depend on the processing

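The 3 h calls of Ddx58, Ifih1, Dhx58, Eif2ak2 and Adar over all cells held under every alternative run, that of Tlr3 held where it could be tested, which it could not with mice thinned, and Mavs was called under none at 3 h. With classes in equal weights, members called higher at 24 h fell from 3 to 1, and the interferon and cytokine list at 3 h from 3 to 1. With mice thinned to equal UMIs, 0 genes of the PKR list and 0 of the endosomal list were called higher in place of 1 each, and with control and 1 time point only, 0 of the PKR list. DESeq2 gave 1 in place of 2 members lower from 24 to 72 h, as Tlr7 received no adjusted p. In MK progenitor-like cells at 72 h, 1 member in place of 0 was called by DESeq2, with library size alone and by the likelihood ratio test. With class sums thinned, Mavs and Tlr3 were too low to test, class differences in control mice were called for 2 of the 5 others in place of 6 members, and class by 3 h terms for 0 in place of 2. The share of cells with Ifih1 at 72 h, 1.72 percentage points above control, was 1.03 points below it without thinning (-1.03), and members with all mice at 72 h above control went from 1 to 0 at 10000 UMIs or without thinning. The cause was not tested in any of these. When a mouse was left out, members called at 24 h ranged from 0 to 3 in HSC-like cells, 0 to 1 in cluster 3 and in MK progenitor-like cells, 1 to 2 in LMPP-like cells, cluster 6 and cluster 7. At 72 h they ranged from 0 to 1 in cluster 3 (1 without 72 h mouse 1) and in MK progenitor-like cells (1 without 3 h mouse 1, 24 h mouse 2 or 4, or 72 h mouse 2). Deviations of mice with the same hashtag number had a mean r of 0.0247 over 24 pairs, against -0.00818 over 72 pairs of different number. Whether mice of the same number shared more than an antibody was not tested. With the hashtag as a replicate block, 7, 3 and 0 members were called at 3, 24 and 72 h, as without it. Over the other settings, 1837 values of single genes kept their side of the threshold, 20 became weaker, 11 stronger and 1 reversed. The sign was compared only for values called in the main fit or the alternative. Others could change sign, as Mavs did at 3 h with mice thinned to equal UMIs. Tlr7 was too low to test in any class.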
